A study of Mus musculus with 5 samples.

Results

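The receptors of the interleukin-1 (IL-1) family read out the cytokines IL-1, IL-33 and IL-18. The family is described here through 6 genes, chosen by name from the 38130 gene entries of each file: Il1r1, Il1r2, Il1rap, Il1rl1, Il18r1 and Il18rap. RNA was sequenced from regulatory T (Treg) cells, a CD4 T cell lineage that depends on Foxp3 and restrains immune responses, sorted as CD4+YFP+ from C57BL/6 mice. There were 5 libraries in 4 groups. Wild type (WT) mice carried the Foxp3-Cre-YFP reporter and were 21 days or 6 weeks old, with 1 library at each age. The group KO was 1 library from Foxp3Cre-YFP malt1fl/fl mice at 21 days, labelled as a Treg deletion of Malt1. The group KI was 2 libraries from Foxp3Cre-YFP malt1fl/C472A mice at 6 weeks, with 1 floxed allele and 1 C472A allele, a genotype labelled as lacking Malt1 protease activity in Treg cells. All 4 groups carried the Foxp3-driven Cre with YFP, so the floxed allele is recombined in cells that express Foxp3, and the labels do not say how other cells carry the C472A allele. Malt1 is a paracaspase that links the antigen receptor to NF-kB, and the design asks how Treg cells differ without the gene or without its protease.

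IL-1 binds the receptor chain IL-1R1, which then recruits the shared accessory chain encoded by Il1rap and signals through the adaptor MyD88, kinases of the IRAK family and TRAF6 to NF-kB. Il1r2 encodes a decoy receptor that binds IL-1 but lacks the intracellular signalling domain, so it takes up ligand without passing on a signal. Il1rl1 encodes ST2, the IL-33 receptor of type 2 and tissue Treg cells, which uses the same accessory chain. Il18r1 and Il18rap encode the binding and the accessory chain of the IL-18 receptor, known from Th1 and natural killer (NK) cells and also found on Treg cells.

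Estimated depth ranged from 6.86 to 28.0 M fragments (M for mega) over the 5 libraries. The label KO was not settled by the gene-level value of Malt1, which was 27.0 scaled FPKM in WT at 21 days, 15.2 in WT at 6 weeks, 17.6 in KO and 55.9 and 37.8 in KI. The KO value thus lay below WT of its age and above WT at 6 weeks. Scaled FPKM are the deposited FPKM (fragments per kilobase of transcript, relative to all mapped fragments) divided by a factor per library. A gene-level FPKM also takes in exons outside a floxed segment, and which exons are floxed is not given in the sources used here. The library is therefore called "the library labelled KO" below, and each direction drawn from it rests on that label. Foxp3 was present in every library at 30.5 to 73.6 scaled FPKM, lowest in the library labelled KO, and Cd4 at 137 to 213. Of 8 tested Treg and T cell identity genes, 3 were past 2-fold lower in that library against WT at 21 days, beside 8.14% of all genes. These were Ikzf2 (-2.08), Ctla4 (-1.73) and Foxp3 (-1.19), as differences in log2(scaled FPKM + 1). Against WT at 6 weeks 1 of 8 was past 2-fold lower there, Ikzf2 (-1.19), beside 2.29% of all genes, and 0 of 8 in KI. The libraries also fell into sets that cross genotype and age. Across 11296 genes, Pearson r on log2 values was 0.943 and 0.951 between WT at 21 days and the KI libraries and 0.939 between WT at 6 weeks and the library labelled KO, against 0.887 and 0.901 between WT at 6 weeks and KI and 0.885 between WT at 21 days and the library labelled KO. The first set holds the 3 deeper libraries (24.3 to 28.0 M fragments) and the second the 2 shallower ones (6.86 and 7.76 M), and genes are not independent replicates in these correlations.

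The receptor genes lie close together, and the sequences before their starts are shown first because neighbouring receptors of the cluster had different profiles. On GRCm38, 5 of the 6 genes lie on chromosome 1 on the plus strand within 467 kb, from 40084768 to 40551705, in the order Il1r2, Il1r1, Il1rl1, Il18r1 and Il18rap, with Il1rl2 (the IL-36 receptor) between Il1r1 and Il1rl1. Il1rap lies apart, on chromosome 16 from 26581704 to 26730117. The stretches below come from RefSeq (GRCm38.p6), read 5′ to 3′ on the plus strand, and end just before the annotated start except for Il1r2. For Il1r2, whose RefSeq start lies inside the gene span that the files give, bases 241 to 109 before that RefSeq start are shown, since the rest of its window is annotated as exon. Capitals mark matches to the motifs searched.
Il1r2, chr1:40085852-40085984: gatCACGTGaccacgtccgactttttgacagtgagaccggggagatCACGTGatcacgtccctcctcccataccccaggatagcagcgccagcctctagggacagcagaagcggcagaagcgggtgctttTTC
Il1r1, chr1:40224830-40225079: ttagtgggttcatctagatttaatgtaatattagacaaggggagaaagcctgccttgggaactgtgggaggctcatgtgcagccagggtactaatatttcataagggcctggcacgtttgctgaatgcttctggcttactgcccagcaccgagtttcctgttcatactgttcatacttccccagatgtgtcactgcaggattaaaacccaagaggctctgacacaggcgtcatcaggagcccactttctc
Il1rl1, chr1:40429320-40429569: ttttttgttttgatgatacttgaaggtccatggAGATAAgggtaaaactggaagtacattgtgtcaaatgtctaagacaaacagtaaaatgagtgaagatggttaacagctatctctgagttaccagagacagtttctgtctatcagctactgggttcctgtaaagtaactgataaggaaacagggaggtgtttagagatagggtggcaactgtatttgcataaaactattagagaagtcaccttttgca
Il18rap, chr1:40515112-40515361: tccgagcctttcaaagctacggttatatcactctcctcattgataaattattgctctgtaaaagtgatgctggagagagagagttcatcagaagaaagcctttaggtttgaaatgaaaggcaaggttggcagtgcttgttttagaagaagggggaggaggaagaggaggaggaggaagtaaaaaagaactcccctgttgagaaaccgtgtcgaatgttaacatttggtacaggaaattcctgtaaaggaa
The motifs, searched on both strands in the 250 bases before each RefSeq start, were an E-box (CACGTG), an AP-1 site (TGANTCA), a STAT site (TTCNNNGAA), a GATA site (AGATAA) and an NF-kB site by its consensus. The E-box was added after the Il1r2 sequence had been read. Il1r2 held the E-box 2 times, 238 and 195 bases before its RefSeq start, and was the one receptor with a match among 10 windows, against 6.02% of all 32851 RefSeq windows. The last capitals of the Il1r2 stretch open a STAT match, 111 bases before the start, that runs into annotated exon. A STAT match lay in 2 of the 10 receptor windows (7.02% of all windows) and an AP-1 match in 0 (6.75%). Il1rl1 held a GATA match before both of its RefSeq starts, 217 and 103 bases upstream (9.99% of all windows). An NF-kB match lay in 1 of the 10 windows (3.9% of all), before a second Il1r1 start. No match was found in the Il1r1 or Il18rap stretches printed. A match is a description of letters and not a bound site, and the absence of a match says nothing about binding.

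Il1r2, the decoy receptor, was higher in every library with a Malt1 mutant label than in both WT libraries. It stood at 13.6 scaled FPKM in WT at 21 days, 11.4 in WT at 6 weeks, 40.5 in the library labelled KO, and 50.5 and 45.1 in KI replicates 1 and 2. The WT libraries lay close together and the 3 others stood apart from them. The deposited bounds, which lie 2 standard errors either side and cover counting and assignment within a library, were 9.51 to 13.4 and 12.4 to 14.8 in the WT libraries and started at 37.0 or above in the others. About 141 to 1701 fragments lie behind each value, as estimated from the bounds. The KI mean was 47.8 ± 3.82 (SD, n = 2), 4.18 times WT at 6 weeks, and the library labelled KO was 2.97 times WT at 21 days.

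**Figure D1:**
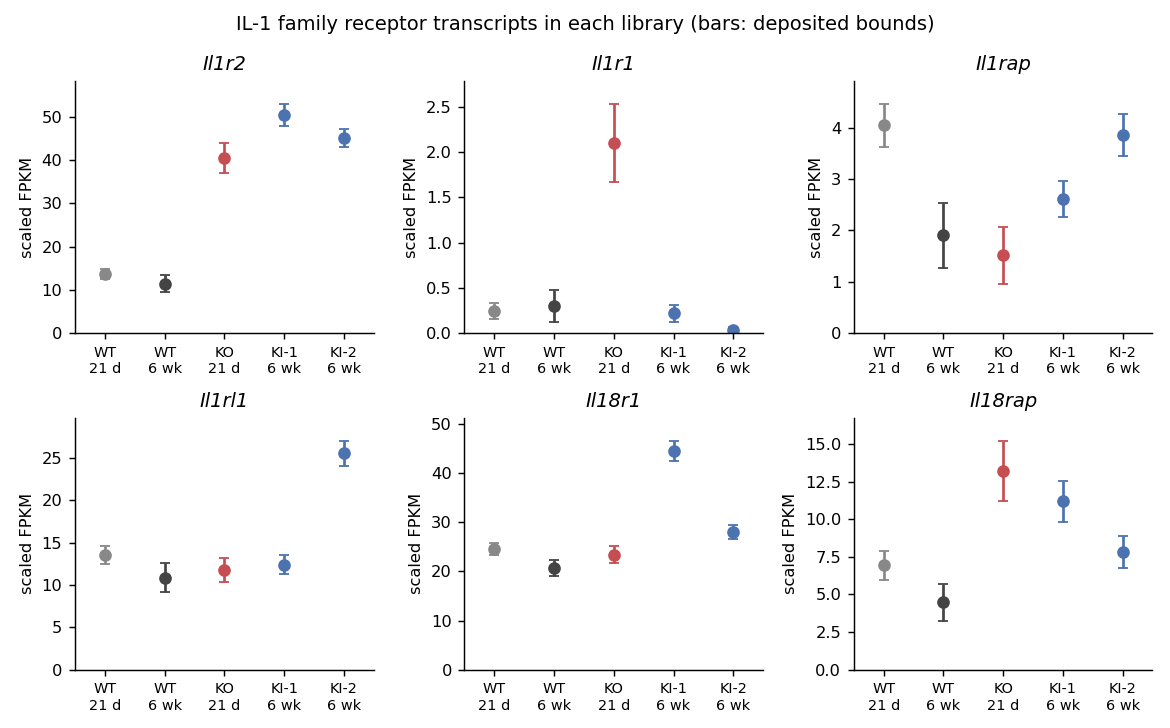
Scaled FPKM of the 6 receptor genes (y axis, linear, own scale per panel) in the 5 libraries (x axis), as points with the deposited lower and upper bounds as bars. Il1r2 is at 11.4 and 13.6 in the WT libraries and at 40.5 to 50.5 in the others, Il1r1 passes 1 in the library labelled KO (2.1), and the KI replicates part for Il1rl1 (12.4 and 25.5) and Il18r1 (44.5 and 28.0).

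The remaining receptors did not share the Il1r2 pattern. Il1r1, the signalling IL-1 receptor, was near the floor of the measurement in 4 libraries, at 0.246 and 0.301 in WT at 21 days and 6 weeks and 0.216 and 0.0286 in KI replicates 1 and 2, and stood at 2.1 in the library labelled KO. Only the last of these passed 1 scaled FPKM, and its bounds (1.67 to 2.53) lay above those of the other 4. It was 8.53 times WT at 21 days and 6.97 times WT at 6 weeks, from about 95 fragments against 31 and 11, in 1 library with no replicate. Decoy transcript thus exceeded transcript of the signalling receptor in all 5 libraries on this per-length scale. Il1r1 had a mean of 0.579 over the 5 libraries, below the minimum of 1 for the fits, so 5 of the 6 receptors were tested.

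Il1rap, the accessory chain used with both IL-1R1 and ST2, was low and followed neither genotype nor age. It stood at 4.04 in WT at 21 days, 1.91 in WT at 6 weeks, 1.51 in the library labelled KO, and 2.61 and 3.86 in KI. The 3 deeper libraries lay above the 2 shallower ones, where about 36 and 30 fragments lie behind the value. Its KI mean was 3.24 ± 0.883 (SD, n = 2).

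Il1rl1, the IL-33 receptor, stood at 13.6 in WT at 21 days, 10.9 in WT at 6 weeks, 11.7 in the library labelled KO, and 12.4 and 25.5 in KI. KI replicate 2 stood apart from the other 4 libraries, which lay within 10.9 to 13.6. The 2 KI libraries thus differed by more than KI replicate 1 differed from any WT library, and the KI mean of 19.0 ± 9.29 (SD, n = 2) has a spread about as wide as its distance from WT at 6 weeks.

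The IL-18 receptor chains were both higher in KI than in WT at 6 weeks, but parted in the library labelled KO. Il18r1, the binding chain, stood at 24.6 in WT at 21 days, 20.6 in WT at 6 weeks, 23.3 in the library labelled KO, and 44.5 and 28.0 in KI. KI replicate 1 was the high one here, whereas KI replicate 2 was the high one for Il1rl1, so the KI pair had no common order over the receptors. Il18rap, the accessory chain, stood at 6.92 in WT at 21 days, 4.47 in WT at 6 weeks, 13.2 in the library labelled KO, and 11.2 and 7.82 in KI. All 3 libraries with a mutant label lay above both WT libraries for Il18rap, though the bounds of KI replicate 2 (6.76 to 8.89) overlap those of WT at 21 days (5.95 to 7.90). The KI means were 36.2 ± 11.6 for Il18r1 and 9.51 ± 2.39 for Il18rap (SD, n = 2 each). The ratio of Il18r1 to Il18rap was 3.55 and 4.62 in the WT libraries (21 days, 6 weeks) and 3.97 and 3.58 in KI, and 1.76 in the library labelled KO, whose bounds (1.49 to 2.09) lay below those of the other 4.

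The order of the receptors by level therefore changed at its top. In both WT libraries Il18r1 was highest, at 24.6 and 20.6, followed by Il1r2 and Il1rl1, which did not differ beyond their bounds (ratio 1.01 and 1.05), then Il18rap, Il1rap and Il1r1. In the library labelled KO and both KI libraries Il1r2 ranked first and Il18r1 second. The lower order changed too in the library labelled KO, with Il18rap (13.2) above Il1rl1 (11.7) and Il1r1 (2.1) above Il1rap (1.51). The ratio of Il1r2 to Il18r1 was 0.555 and 0.554 in WT at 21 days and 6 weeks, 1.73 in the library labelled KO, and 1.14 and 1.61 in KI. Relative to Il1rl1, Il1r2 was 3.45 times as high in the library labelled KO and 4.07 and 1.77 times in KI. The 6 receptors summed to 63.0 and 49.6 scaled FPKM in the WT libraries, 92.4 in the library labelled KO, and 121 and 110 in KI.

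The age-matched comparison of KI with WT at 6 weeks gave a positive difference for all 5 tested receptors, where 49.2% of all genes had one, and none passed the adjusted test. In log2(scaled FPKM + 1), a scale that shrinks differences between low values, the difference for Il1r2 was 1.97 (SE 0.227), for Il18rap 0.92 (SE 0.368), for Il18r1 0.75 (SE 0.373), for Il1rl1 0.67 (SE 0.524) and for Il1rap 0.53 (SE 0.348). By limma with Benjamini-Hochberg adjustment over all 11296 genes, the adjusted p was 0.276 for Il1r2 and 0.488 to 0.647 for the other 4. The unadjusted p was 0.00199 for Il1r2, the one receptor under 0.05, a level that 10.7% of all tested genes reached, while 0.00885% (1 gene) passed the adjusted threshold of 0.05. Il1r2 was the one tested receptor past 2-fold in both KI libraries, 1 of 5 where 3.01% of all genes were past it upward. Only 0.779% of all tested genes had a higher difference. The bounds of both KI libraries lay above those of WT for Il1r2, Il18r1 and Il18rap, 3 of 5, where 16% of all genes had bounds apart in that direction. This fit has 1 residual degree of freedom and takes the lone WT library to vary as the KI pair does, and the labels do not say that the KI libraries came from separate mice, so p-values measure a spread that may be technical.

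Il1r2 was also higher in KI when both WT libraries served as controls, where more pairs of libraries have to pass 2-fold. It was past 2-fold in each KI library against each WT library, again 1 of 5 tested receptors, where 0.283% of all genes were higher in this way. Its difference was 1.85 (SE 0.215, unadjusted p = 0.000352, adjusted p = 0.663 by limma over 11296 genes), while 3.42% of all genes had an unadjusted p under 0.05 and 0.00885% (1 gene) passed the adjusted threshold. The differences of the other 4 receptors were 0.13 to 0.66 with adjusted p of 0.930 to 0.973. Against WT at 21 days alone, which shares the set of KI in the correlations above, the Il1r2 difference was 1.74, past 2-fold where 0.398% of all genes were, and those of the other 4 ran from -0.27 for Il1rap to 0.51 for Il18r1. By limma the adjusted p was 1 for each of them and 0% of all genes passed, with 2.12% (240 genes) at an unadjusted p under 0.05.

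The library labelled KO was set beside WT at 21 days, with 1 library a group and no replicate check. Il1r2 was higher by 1.5 and Il18rap by 0.84 on the log2 scale, Il1rap was lower (-1.004), and the bounds of Il1rl1 (-0.20) and Il18r1 (-0.07) overlapped between the libraries. Past 2-fold were 2 of the 5 tested receptors, Il1r2 upward and Il1rap downward, where 14.3% of all genes were. Bounds did not overlap for 3 of 5, Il1r2, Il18rap and Il1rap, a share read against 51.7% of all genes. A limma fit of the 4 group means, with the spread taken from the KI pair, gave Il1r2 an adjusted p of 0.457, and in that fit 0 of all genes passed and 1171 had an unadjusted p under 0.05. Against WT at 6 weeks, which lies in the same set by depth and correlation but shares that control with the KI comparison, the differences were 1.74 for Il1r2, 1.38 for Il18rap, 0.17 for Il18r1, 0.10 for Il1rl1 and -0.21 for Il1rap. There 2 of 5 were past 2-fold, Il1r2 and Il18rap, where 3.3% of all genes were higher by that much.

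**Figure D2:**
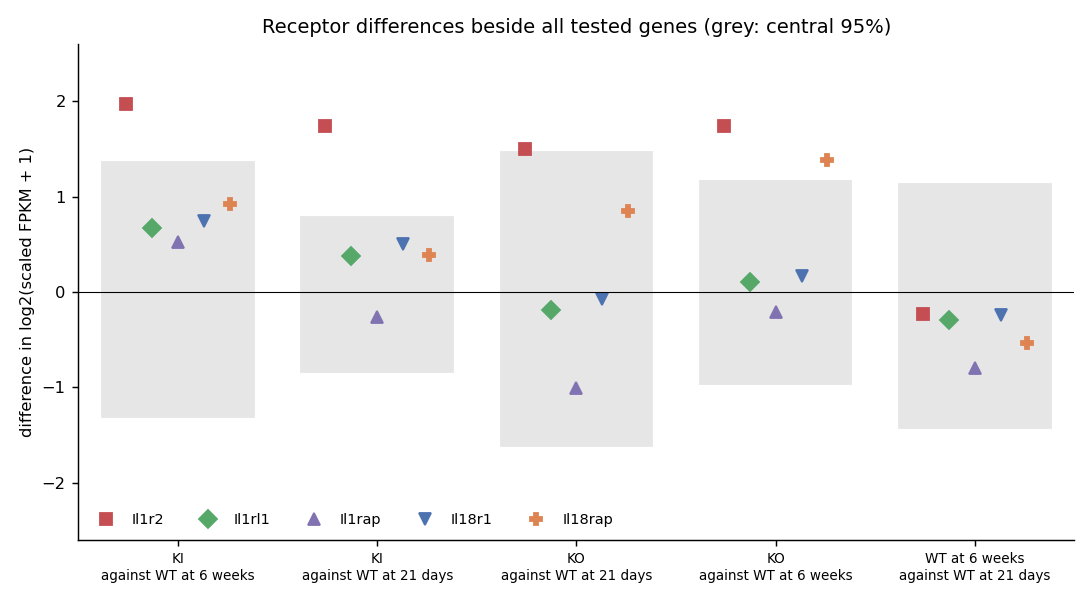
Differences in log2(scaled FPKM + 1) of the 5 tested receptors (points) in 5 comparisons (x axis), with the central 95% of all 11296 tested genes as grey boxes. Il1r2 lies above the box in all 4 comparisons of a mutant label with WT (1.97, 1.74, 1.5 and 1.74), Il18rap lies above it in the last of these (1.38), and all 5 receptors lie inside it between the WT ages.

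The 2 WT libraries give the size of difference among controls, confounded with age and depth. WT at 6 weeks was lower than WT at 21 days for all 5 tested receptors, by -0.23 for Il1r2, -0.24 for Il18r1, -0.30 for Il1rl1, -0.53 for Il18rap and -0.80 for Il1rap, where 50.9% of all genes were higher. On this scale none (0 of 5) was past 2-fold, although the plain ratio of Il1rap was 2.12, where 8.56% of all genes were, and bounds did not overlap for 3, Il18r1, Il18rap and Il1rap, where 41.7% of all genes had bounds apart. The 2 KI libraries differed by 0.16 for Il1r2, -0.98 for Il1rl1, -0.43 for Il1rap, 0.65 for Il18r1 and 0.47 for Il18rap (replicate 1 minus replicate 2), with 0 of 5 past 2-fold on this scale where 6.59% of all genes were. Il1r2 thus had both the smallest spread within KI and the largest difference from WT among these 5. The 3 libraries with a mutant label were also set against both WT libraries, a comparison chosen after their Il1r2 values had been seen and given as a description. In it the Il1r2 difference was 1.78 (SE 0.21, adjusted p = 0.461 by limma), past 2-fold in all pairs, as were 0.133% of all genes (15) on the higher side. By limma 0% of all genes passed the adjusted threshold and 2.63% (297) had an unadjusted p under 0.05. The groups did not overlap for Il1r2 and Il18rap, 2 of 5, where 7.34% of all genes stood above WT without overlap.

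The split of the libraries by depth ran through several receptors. For Il1rap, Il1rl1 and Il18r1, 3 of the 5 tested, every deeper library (WT at 21 days and both KI) lay above both shallower ones (WT at 6 weeks and the library labelled KO), as it did for 23.6% of all tested genes. The margins were narrow for Il1rl1 (12.4 over 11.7) and Il18r1 (24.6 over 23.3). Il1r2 and Il18rap did not divide this way, since the library labelled KO is shallow and high for both. The same split ran through 4 of the 8 Treg and T cell identity genes, higher in all deeper libraries (Foxp3, Il2ra, Ctla4 and Ikzf2), with 3 lower. Among tested markers, 4 of 6 of plasmacytoid dendritic cells, 3 of 4 of NK cells and 2 of 2 of CD8 T cells were lower in all deeper libraries, beside 23.6% of all genes. Of B cell markers 0 of 3 were. Depth and cell make-up cannot be told apart in this split, and their part in the Il1rap, Il1rl1 and Il18r1 differences was not tested.

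Markers of other cells in the sort were read beside the receptors, since several of these genes are also known from myeloid, mast and NK cells. The 8 neutrophil markers summed to 0.506 and 2.87 scaled FPKM in WT at 21 days and 6 weeks, 2.36 in the library labelled KO, and 7.55 and 0.184 in KI, with Elane and Ly6g at 0 in all 5. The 10 markers of monocytes, macrophages and dendritic cells were highest in WT at 6 weeks for 10 of 10 (sum 149, against 31.5 to 61.2 in the others). Plasmacytoid dendritic cell markers (6 genes) summed to 71.9 in WT at 6 weeks and 2.50 to 13.2 elsewhere, and erythroid and platelet markers (6 genes) to 51.6 there, 27.8 in KI replicate 1 and 1.86 to 6.44 elsewhere. The sum of the B cell markers (6 genes) divided the libraries as Il1r2 did but in the opposite direction. It was 16.5 and 23.5 in WT at 21 days and 6 weeks, 6.66 in the library labelled KO, and 4.03 and 3.11 in KI. Ebf1, at its higher entry, did not divide this way, at 0.171 in WT at 21 days and 0.181 in the library labelled KO. All 3 tested B cell genes (Cd79a, Cd79b, Ms4a1) were past 2-fold downward in KI against WT at 6 weeks, beside 2.8% of all genes. The sums of the CD8 T cell markers (2 genes) ran from 5.79 in KI replicate 2 to 13.2 in WT at 6 weeks, and those of the stromal, endothelial and epithelial markers (7 genes) from 27.6 to 37.8, most of it Pecam1 at 23.3 to 32.3. The part of these cells in the Il1r2 difference was not tested.

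The library labelled KO had the highest sum of the 7 NK markers (23.9, of which 14.9 is Gzma, against 3.20 to 13.6). Eomes (2.76), Prf1 (3.11) and Klrb1c (1.82) were also highest there, while Ncr1, Klrd1 and Klre1 were at 0.193, 1.17 and 0 there and highest in WT at 6 weeks. It also had the highest sum of the 8 mast cell and basophil markers (8.53, against 0.702 to 3.75), nearly all from Hdc (5.97) and Kit (2.50). Cpa3 (0.061) was above 0 only there. Mcpt8 (0.40) and Prss34 (0.10) were highest in WT at 6 weeks and at 0 in the library labelled KO. Fcer1a, Ms4a2 and Mcpt4 were at 0 in all 5 libraries. The 6 group 2 innate lymphoid markers summed to 8.35 in the library labelled KO, against 1.94 to 3.39 elsewhere. Il13 (3.33), Il5, Arg1, Gpr44 and Calca were highest there. Il17rb, the 1 tested gene of that list, was highest in WT at 6 weeks and at 2.93 in the library labelled KO. The part of these cells in the Il18rap and Il1r1 levels of that library was not tested, and in bulk RNA fewer cells of a type and less RNA per cell cannot be told apart.

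Around the receptors, the genes of the cluster that are not receptors were mostly silent. Within 500 kb of the chromosome 1 receptors lie 13 other genes, of which 1, Map4k4, passed 1 scaled FPKM in any library. Map4k4, a kinase gene upstream of Il1r2, stood at 26.1 and 24.9 in the WT libraries (21 days, 6 weeks), 24.1 in the library labelled KO, and 32.2 and 27.5 in KI, a narrow range beside that of Il1r2. Il1rl2 stayed at 0.300 to 0.519. Il1rl1 and Il18r1 are separated by 136 bases between the end of the first and the start of the second, yet their high KI library differed (replicate 2 for Il1rl1, replicate 1 for Il18r1).

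**Figure D3:**
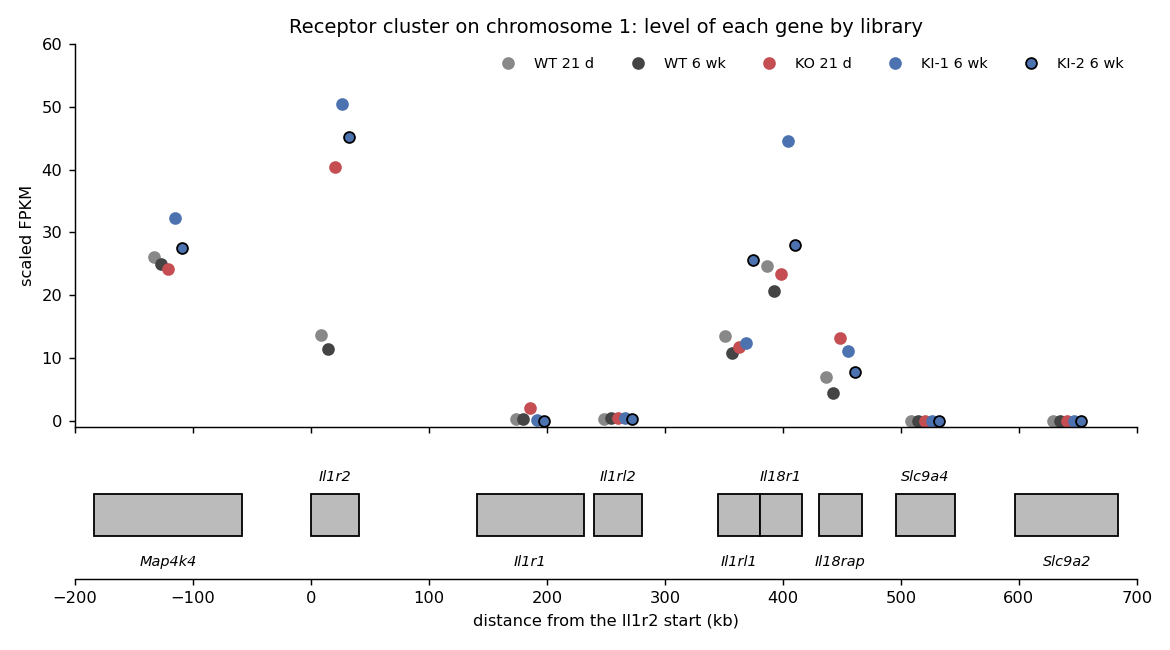
Scaled FPKM (upper panel, linear y axis) of receptors and selected neighbours on chromosome 1, drawn at the distance of each gene's middle from the Il1r2 start (x axis, kb), with the gene bodies to scale below; points of 1 gene are spread sideways by library. Il1r2 divides into 2 WT points at 11.4 and 13.6 and 3 points at 40.5 to 50.5, whereas Map4k4 beside it stays within 24.1 to 32.2.

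The rest of the pathway was taken from lists by role. The ligands were near the floor in these cells: Il33 was at most 0.0148, Il1a 0.267 and Il1b 1.01, the last in WT at 6 weeks, and the antagonist Il1rn at most 0.879. Il18 reached 2.29 in WT at 6 weeks and 0.288 to 1.28 elsewhere, and its soluble inhibitor Il18bp stood at 2.47 to 3.54. Decoy receptor transcript was thus measured in cells with little IL-1 transcript of their own. Sigirr, an inhibitory receptor of the family, stood at 18.6 in WT at 21 days, 30.8 in WT at 6 weeks, 43.6 in the library labelled KO, and 26.3 and 21.5 in KI. It was higher in the library labelled KO by 1.18 against WT at 21 days and lower in KI against WT at 6 weeks (-0.36).

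Of 17 tested signalling genes below the receptors, 1 was past 2-fold upward in KI against WT at 6 weeks, Tab3 (1.16), an adaptor of the kinase TAK1, and 0 downward, beside 3.01% and 2.8% of all genes, with a median of 0.45 (all genes -0.0045). By limma 0 of the 17 passed the adjusted threshold and 4 had an unadjusted p under 0.05, as did 10.7% of all genes. The next highest was Peli1 (0.96), a ubiquitin ligase of the IRAK kinases. The lowest were Ecsit (-0.39) and Myd88 (-0.38), the adaptor of the signalling receptors but not of the decoy. In the library labelled KO against WT at 21 days the median was -0.17 (all genes 0.016), with 1 of 17 past 2-fold, Tab3 again but downward (-1.05), beside 8.14% of all genes. Peli1 (-0.79) was the next lowest there, and Myd88 (0.76) and Ecsit (0.68) were the highest. Tab3 stood at 5.08, 5.78 and 5.34 in the deeper libraries (WT at 21 days, KI replicates 1 and 2) and at 1.93 and 1.95 in the shallower ones. Of the 17, 11 were higher in all deeper than in both shallower libraries, as Il1rap was, and 3 were lower in all of them, beside 23.6% of all genes in each direction.

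**Figure D4:**
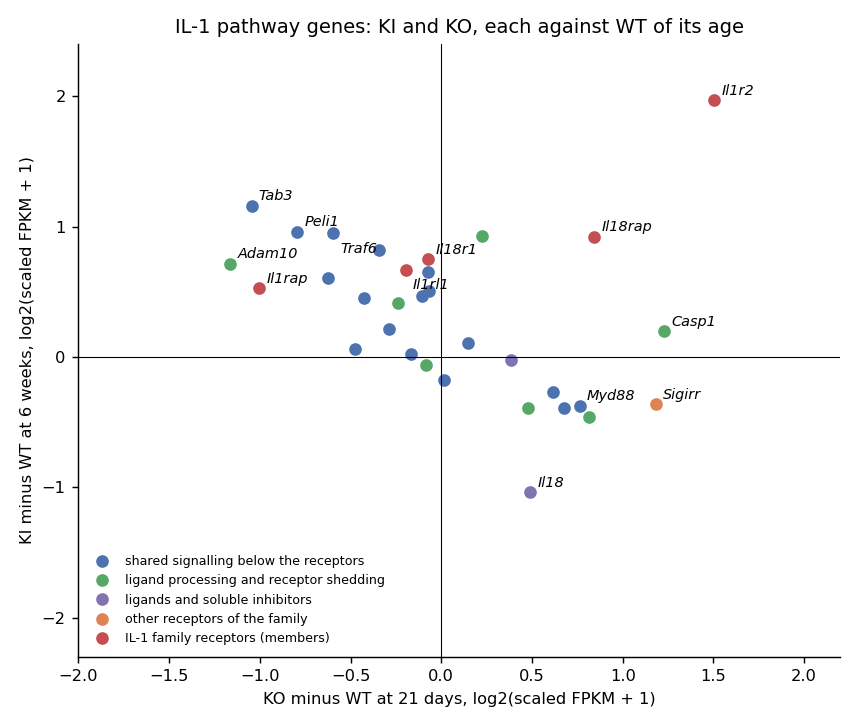
Difference in log2(scaled FPKM + 1) of tested IL-1 pathway genes in the library labelled KO against WT at 21 days (x axis) and in KI against WT at 6 weeks (y axis), coloured by list. Il1r2 lies at the upper right (1.5 and 1.97) with Il18rap (0.84 and 0.92) below it, while Tab3 (-1.05 and 1.16) and Il1rap (-1.004 and 0.53) lie at the upper left.

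Of the 7 tested genes for ligand processing and receptor shedding, 0 were past 2-fold in KI against WT at 6 weeks (3.01% of all genes upward, 2.8% downward), where Casp4 (0.93) and the protease Adam10 (0.71) were highest and Pycard (-0.46) and Gsdmd (-0.39) lowest. In the library labelled KO against WT at 21 days (6.13% of all genes upward, 8.14% downward), Casp1, which activates IL-1 and IL-18 precursors, was past 2-fold upward (1.23), Adam10 downward (-1.16), and Pycard (0.81) and Adam17 (-0.24) came next. Casp1 stood at 8.83 in WT at 21 days, 10.9 in WT at 6 weeks, 22.1 in the library labelled KO, and 14.5 and 10.9 in KI.

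The states in which these receptors are known were read from other lists. ST2 marks tissue Treg cells, and of 11 tested genes of that state 3 were past 2-fold upward in KI against WT at 6 weeks, Areg (3.11), Nfil3 (1.86) and Irf4 (1.55), beside 3.01% of all genes, and 1 downward, Klrg1 (-3.36), beside 2.8%. Batf (0.065) was the next lowest. The list's direction depended on the control. Its median was 0.69 against WT at 6 weeks (10 of 11 above 0, beside 49.2% of all genes). Against WT at 21 days it was -0.14 (4 of 11 above 0, beside 49.9% of all genes), and 0 genes were past 2-fold upward against both WT libraries. Between the KI libraries, Areg, which encodes the tissue repair factor amphiregulin, was at 40.4 in replicate 1 and 9.04 in replicate 2, whereas Il1rl1 was at 12.4 and 25.5. Of the 11 genes, 6 were higher in replicate 2, as Il1rl1 was, and 5 in replicate 1, where 49% of all genes were higher. In the library labelled KO against WT at 21 days 1 was upward, Gzmb (2.88), with Batf (0.98) next, and 3 were downward, Rora (-2.39), Klrg1 (-1.90) and Areg (-1.77), beside 6.13% and 8.14% of all genes. Its median there was -0.65, and 0.69 against WT at 6 weeks.

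The IL-18 receptor belongs to the Th1 programme. Of 8 tested Th1 genes 0 were past 2-fold in KI against WT at 6 weeks (median 0.13). Of all genes, 3.01% were past it upward and 2.8% downward. In this comparison Il12rb2 (0.52) and Runx3 (0.47) were highest and Ifng (-0.32) and Tbx21 (-0.14) lowest. Upward in the library labelled KO against WT at 21 days were 2 of 8, Tbx21 (1.12), the Th1 transcription factor, and Il12rb2 (1.07), beside 6.13% of all genes, with a median of 0.60. Il18rap was higher there too (0.84), while Il18r1 was not (-0.07), nor were Stat4 (-0.40), Cxcr3 (-0.14) and Ifng (-0.08). Of 9 follicular and activation genes 0 were past 2-fold in KI against WT at 6 weeks, beside the same 3.01% and 2.8% of all genes. Ctla4 (1.103) and Il2ra (0.91) were highest and Pdcd1 (-1.31) and Cxcr5 (-0.84) lowest. Against WT at 21 days 1 was downward in the library labelled KO, Ctla4 (-1.73), beside 8.14% of all genes, followed by Bcl6 (-0.53), and Pdcd1 (0.16) and Tnfrsf4 (0.085) were highest. By limma 0 genes of the ST2, Th1 and follicular lists passed the adjusted threshold in KI against WT at 6 weeks, and 4, 0 and 0 had an unadjusted p under 0.05, as did 10.7% of all genes.

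Genes with the profile closest to each receptor over the 5 libraries were listed by the distance between log2 profiles centred on their mean, among 9867 protein-coding genes. For Il1r2 the closest were 1700057K13Rik (distance 0.299), Tm4sf5 (0.465), Serpina3g (0.539), Itga7 (0.589) and Lilrb4 (0.603). Serpina3g, a serine protease inhibitor gene with near-identical relatives that can share its reads, stood at 41.3 and 26.2 in WT at 21 days and 6 weeks, 88.2 in the library labelled KO, and 87.7 and 93.3 in KI. Lilrb4, an inhibitory receptor gene with a close copy in the mouse, stood at 2.54, 1.93, 10.3, 13.7 and 6.73 in the same order. For Il1rl1 the closest were Hmgxb4, Rad54b, Fam188a, Tia1 and Tnfsf10 (0.137 to 0.182), all high in KI replicate 2. For Il1rap they were P2rx7 (0.102), a receptor for extracellular ATP, with Kif13a, Homer1, Ankrd44 and Cul4b. For Il18r1 they were Ddx26b, Casc4, Crebl2, Zfp326 and Gdpd5 (0.177 to 0.210), and for Il18rap they were Cd200, F2r, Cirbp, Rbm3 and Etv6 (0.239 to 0.264). With 5 libraries many genes share any profile, and these lists are descriptions.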

How the data were processed

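Total RNA of sorted Treg cells was sequenced in 5 libraries. The submitters' processing notes list CASAVA, HISAT2 2.1.0, Cufflinks 2.2.1 and GRCm38, and the deposited values are FPKM per gene with lower and upper bounds, per the file headers. How strand was handled is not given in the sources used here, so overlapping and antisense genes cannot be separated, and gene-level values do not separate soluble from membrane isoforms. Depth was estimated from the bounds, since FPKM hold no counts.

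A median-of-ratios factor for each library (0.868 to 1.15), taken over 9874 genes that reached an FPKM of 1 in every library, scaled the FPKM. Differences are in log2(scaled FPKM + 1) over 11296 genes with a mean of at least 1. Where a group had 2 libraries, limma 3.58.1 with trend (in R 4.3.3) gave two-sided p-values, which were adjusted by Benjamini-Hochberg and read at 0.05. It was tested on simulated data, where the fit of KI against WT at 6 weeks called almost none of the genes made to differ, so a p above the threshold there says little, and the fit against both WT libraries made some calls of unchanged genes. Past 2-fold means past it in every pair of libraries in 1 direction. Comparisons with 1 library a group have no test of their own. For the library labelled KO, and for its difference from the KI comparison, limma was also fitted to all 4 groups at once, with the KI pair as the sole source of spread. Alternatives changed the pseudocount, scaling, filter, trend, control library and each replicate in turn.

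Members and lists were chosen with earlier results of these data known. Of 159 list genes, 155 were matched in the files, 4 of them by gene ID. The results of 1 cell state list are not reported here. The named genes were all 6 receptors, genes within 500 kb of them, the 5 closest profiles to each tested receptor, and from each pathway and cell state list the 2 highest and 2 lowest in the age-matched KI and KO comparisons, plus genes named for their place in the pathway. Coordinates are counted from 1, on GRCm38, with GENCODE M21 for gene types.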

Additional observations from a re-analysis of the deposited data

Results flagged for a closer look

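For 4 receptors the difference between the library labelled KO and WT at 21 days had the opposite sign to both KI libraries against WT at 6 weeks. The 2 comparisons set deeper against shallower libraries in opposite order, so a gene split by depth has opposite signs here. Il1rap, Il1rl1 and Il18r1 were higher in every deeper library than in both shallower ones, and Il1r1 was lower. Of all tested genes, 23.6% were split in each of these directions. The share of all genes with opposite signs was not counted. The bounds of KI replicate 1 overlapped those of WT at 6 weeks for Il1r1, Il1rap and Il1rl1. For Il1r1 the difference on the log2 scale was 1.31 in the library labelled KO and -0.10 and -0.34 in the KI libraries, and the difference between the comparisons was not tested, since Il1r1 lay below the minimum level. For Il1rap it was -1.004 against 0.31 and 0.74, and a limma interaction term gave an adjusted p of 0.303. For Il18r1 it was -0.071 against 1.07 and 0.42 (adjusted p = 0.50 by limma), and for Il1rl1 it was -0.20 against 0.18 and 1.16 (adjusted p = 0.60 by limma). For Il18r1 and Il1rl1 the bounds of the library labelled KO overlapped those of WT at 21 days. Their sign in that library turned with FPKM as deposited (0.30 and 0.16). Il1r2 and Il18rap had the same sign in both comparisons, with adjusted p of 0.526 and 0.945 for the interaction by limma. In that fit 1 of all 11296 genes passed the adjusted threshold and 1887 had an unadjusted p under 0.05.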

How the results depend on the processing

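The Il1r2 difference stayed positive under every alternative tried for each comparison with a mutant label: 1.69 to 2.05 for KI against WT at 6 weeks (adjusted p 0.0719 to 1), 1.76 to 1.93 against both WT libraries (0.314 to 0.991), 1.5 to 1.87 for the library labelled KO, and 1.66 to 1.89 for the 3 libraries with a mutant label (0.386 to 1). Receptors past 2-fold in KI against WT at 6 weeks were 1 with both KI libraries and 2 and 3 without KI replicate 1 and 2, since fewer libraries then have to pass. In the library labelled KO they were 2, with 3 without a minimum level, where Il1r1 joins, 1 with upper-quartile scaling and 1 at a minimum mean of 5, which leaves Il1rap out. Between the WT ages they were 0, and 1 at a pseudocount of 0.1.

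Directions turned for small differences. Il1rap in KI turned to -0.27 with WT at 21 days as control, and against both WT libraries it ran from -0.084 without KI replicate 2 to 0.34 without KI replicate 1. In the library labelled KO, Il1rl1 and Il18r1 turned to 0.16 and 0.30 with FPKM as deposited, which shifts the median of all genes by 0.35 there and by -0.26 in KI, and to 0.10 and 0.17 against WT at 6 weeks. Between the WT ages Il1r2, Il1rl1 and Il18r1 turned to 0.13, 0.065 and 0.13 with FPKM as deposited. Across the 3 libraries with a mutant label, leaving out 1 library moved Il1rl1 from -0.0087 (without KI replicate 2) to 0.52 (without the library labelled KO). Il1rap moved from -0.51 (without WT at 6 weeks) to 0.13 (without the library labelled KO) and 0.28 (without WT at 21 days). The causes were not tested.

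Over all genes, limma called 1 in KI against WT at 6 weeks, and 50 at a pseudocount of 0.1, 25 at a minimum mean of 5, 15 in protein-coding genes, 2 with FPKM as deposited and 0 under 4 others. The genes past 2-fold there were 656, 1055 at a pseudocount of 0.1, 323 at a minimum of 5, 384 in protein-coding genes, 134 against WT at 21 days and 1260 to 1492 without 1 KI library. In the same order of pseudocount, minimum and protein-coding genes, the 71 genes past 2-fold in KI against both WT libraries became 140, 29 and 47 (267 to 291 without 1 KI library), and the 967 between the WT ages became 1498, 528 and 525. The library labelled KO had 1613, 934 at a minimum of 5 and 632 against WT at 6 weeks. For the 3 libraries with a mutant label the 32 genes became 67 at a pseudocount of 0.1, 14 at a minimum of 5 and 55 to 185 without 1 library. There limma called 0 genes, but 11 without WT at 6 weeks, 4 without WT at 21 days and 1 without the library labelled KO. No paired analysis was possible, since the labels give no pairing and every group but KI holds 1 library. Low counts limit Il1r1 and Il1rap most, with 11 and 36 estimated fragments in WT at 6 weeks. Il1r1 had 3 in KI replicate 2, a deeper library.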

Other observations

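A gene on the opposite strand, AC161534.1, overlaps the 5′ end of Il1r2 and stood at 0.320 scaled FPKM in WT at 21 days, 0 in WT at 6 weeks, 0.929 in the library labelled KO, and 0.655 and 0.792 in KI. Gm20319, also on the opposite strand, overlaps the 3′ end of Il1rap and was at most 0.564. Without a strand setting, reads in these overlaps cannot be told apart from those of the receptor genes. The longest annotated coding sequence of Il1r2 is 1230 bases, against 1728 for Il1r1, 1701 for Il1rl1, 2055 for Il1rap, 1611 for Il18r1 and 1842 for Il18rap.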
